A study of Mus musculus with 18 samples.

Results

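The genes described here are those of the Wnt signal that a cell itself sends: 8 Wnt ligand genes (Wnt3a, Wnt4, Wnt5a, Wnt7a, Wnt7b, Wnt9a, Wnt10a and Wnt11) and 2 genes that every Wnt ligand needs to leave the cell, Porcn and Wls. They were taken by symbol, 10 genes of the 52636 listed in the count tables, with earlier results of these data known. RNA was sequenced from cultured mouse lung cells, labelled alveolar type 2, an epithelial type that makes surfactant in the alveolus. The culture lasted 19 days in the presence of CHIR99201 (spelled so in the labels), which the series names as a Wnt agonist. LGK974, a Porcn inhibitor that blocks the acylation of Wnt ligands, was listed for all 6 groups. In 3 groups CHIR99201 had been replaced: by Wnt, with no statement of which Wnt protein (WNT), by a Fzd5 agonist (FZD5 agonist) or by a Fzd6 agonist (FZD6 agonist), each named for the Frizzled receptor it acts on. The other groups were cells with CHIR99201 (CHIR, which the labels call the control), cells 24 h after its removal (24 h withdrawal) and cells 48 h after its removal (48 h withdrawal). Each group held 3 libraries, treatments lasted 8 to 12 h, and how long the cells given a ligand had been without CHIR99201 is not stated. The labels do not say whether libraries of 1 group came from different animals or cultures, so every p-value here reflects the spread among these libraries, and that spread may be technical.

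Wnt proteins are secreted, lipid-modified signals that bind Frizzled receptors together with LRP or other co-receptors, and many of them stabilise beta-catenin, which with TCF/LEF factors switches on target genes such as Axin2. Porcn, an acyltransferase of the endoplasmic reticulum, attaches a fatty acid to a conserved serine of the ligand. Wls, a multispanning membrane protein, binds the acylated ligand and carries it to the cell surface, and the retromer complex returns Wls for another round. In the mouse lung Wnt7b is a ligand of the epithelium from development onwards, and Wnt signals support alveolar type 2 cells as progenitors of the flat alveolar type 1 cells.

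The part of a ligand that Porcn and Wls both depend on is the acylated serine, and its coding sequence is shown because LGK974 acts on exactly this step in all groups. The lines give, for each of the 8 ligand genes, the 24 bases of coding sequence around that serine from the GENCODE M21 transcripts, 5′ to 3′ on the coding strand, with the serine codon in capitals.
Wnt3a: tgccacgggctaTCTggcagctgt
Wnt4: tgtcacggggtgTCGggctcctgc
Wnt5a: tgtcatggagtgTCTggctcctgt
Wnt7a: tgccatggtgtgTCAggctcctgt
Wnt7b: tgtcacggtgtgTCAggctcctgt
Wnt9a: tgccatggtgtgTCTggctcctgc
Wnt10a: tgccacggcaccTCAggcagctgc
Wnt11: tgccatggggtgTCTggctcctgc
The in-frame acylation motif of 8 codons occurred in 19 of 19 Wnt genes and in 19 of 21562 coding genes, that is, in the Wnt genes and in no other coding gene of the annotation. On GRCm38 the site lay at chr11:59250053-59250076 on the minus strand in Wnt3a (codon 209), at chr4:137296345-137296368 on the plus strand in Wnt4 (codon 212) and at chr15:85537812-85537835 on the minus strand in Wnt7b (codon 213).

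The libraries held 31509607 to 52030066 counts. Of these, 4 had a median correlation with the other libraries under 0.96 (FZD6 agonist 1 at 0.950, CHIR 1 at 0.927, CHIR 3 at 0.945 and 24 h withdrawal 2 at 0.782), against 0.966 to 0.982 in the other 14. Of the low ones, 3 carried the airway secretory gene Scgb1a1 at 38.6 to 79.8 CPM (counts scaled to a common library size with TMM factors), where the other 15 libraries stayed below 1 CPM. The main test uses all 18 libraries, and a fit of the 14 is given beside it. In the 14-library fit CHIR rests on CHIR 2 alone, assumed to vary like the other groups, and 24 h withdrawal and FZD6 agonist on 2 libraries each. No difference of a member that was called over the 14 libraries was called over the 18. All 10 alveolar type 2 markers were detected, with a summed level of 68940 to 167200 CPM. Mesenchymal markers summed to at most 0.714 CPM with Col1a2, Col3a1 and Tcf21 at 0 in all libraries, and endothelial markers to at most 0.143 CPM with Cdh5 and Kdr at 0, so these other sources of Wnt ligand RNA in lung were at or near 0. Of the 6 haematopoietic markers Ptprc, Marco, Cd3e and Cd79a stayed below 1 CPM, while the summed level of 171 to 2017 CPM came mostly from Lyz2, which alveolar type 2 cells can express too, with Cd68 at most at 13.5 CPM. That sum was 1434 to 1608 CPM with WNT, 1395 to 1878 CPM with the FZD5 agonist and 802 to 2017 CPM with the FZD6 agonist. It was 264 to 1363 CPM in CHIR, 171 to 719.5 CPM after 24 h of withdrawal and 1143 to 1241 CPM after 48 h, and its part in the results was not tested. In such bulk samples fewer cells of a type and less RNA per cell cannot be told apart.

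The carrier was abundant and the ligands were not. By deposited RPKM, which allow for gene length, the median over 18 libraries was 124 for Wls and 5.74 for Porcn. The ligands followed with 4.63 for Wnt4, 4.16 for Wnt7b and 1.83 for Wnt7a, and then with 0.327 for Wnt9a, 0.129 for Wnt3a, 0.123 for Wnt11 and 0.0209 for Wnt5a. The ranges over libraries of Porcn, Wnt4 and Wnt7b overlapped (2.26 to 11.7, 0.640 to 12.0 and 0.207 to 7.43 RPKM), so the order among these 3 is not beyond their spread, and the same holds for Wnt3a and Wnt11. Wnt10a had 11 counts in all libraries together, of which FZD6 agonist 1 held 6 and 24 h withdrawal 2 held 4, and it was the 1 member not tested. Of the 11 Wnt genes outside the list, Wnt5b had the highest median level, 0.131 RPKM, and Wnt2 and Wnt8a had no count in any library.

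**Figure D1:**
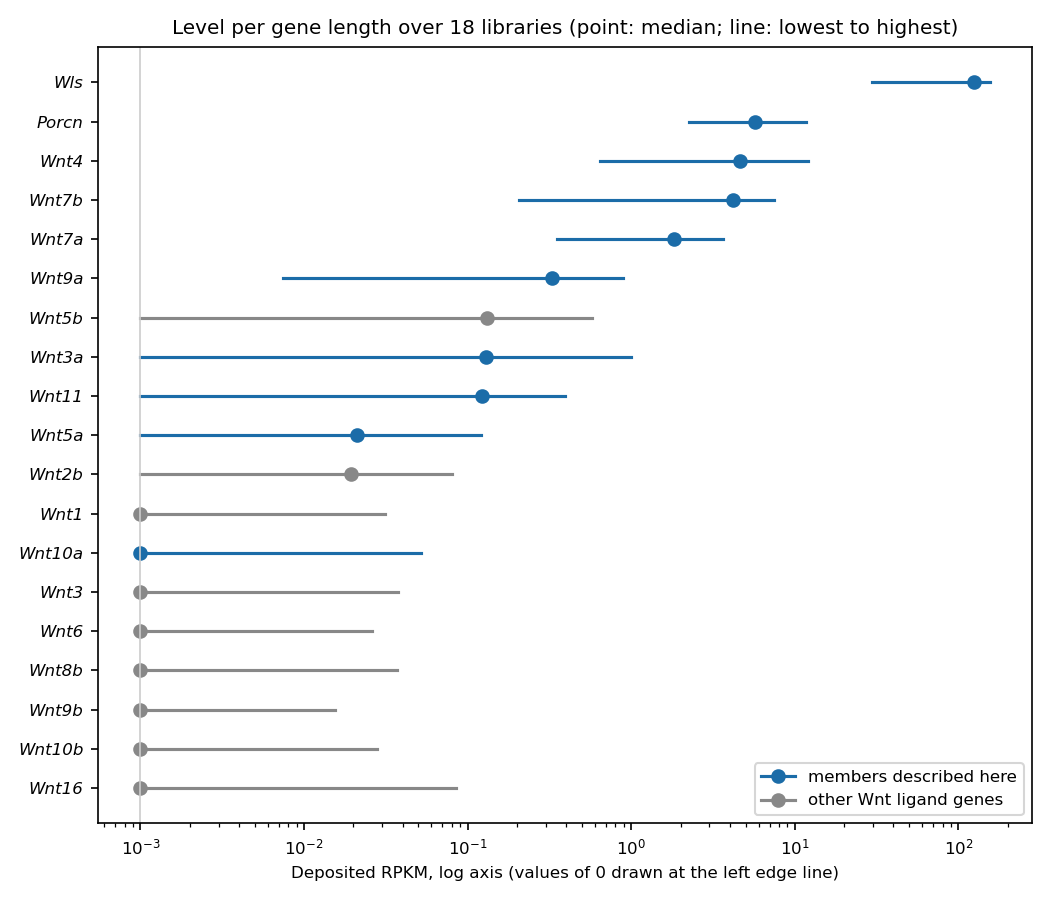
Deposited RPKM (log axis) of the 10 genes described here (blue) and of the other Wnt ligand genes with a count (grey), as median (point) and lowest to highest value (line) over 18 libraries; values of 0 are drawn at the left edge line. Wls stands at a median of 124 RPKM, and Porcn, Wnt4, Wnt7b and Wnt7a at 1.83 to 5.74 RPKM.

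Wnt4, Wnt7b and Wnt7a together made up 84.3% to 96.2% of the summed RPKM of all 19 Wnt genes in each of the 18 libraries. Their mix differed between groups. Wnt7b took 35.7% to 53.4% of the sum in the FZD5 agonist libraries and 41.0% to 50.2% in the FZD6 agonist libraries, against 25.0% to 28.8% with WNT and 25.9% to 27.0% after 48 h of withdrawal. Wnt4 took 27.3% to 37.6% with the FZD5 agonist and 28.2% to 32.4% with the FZD6 agonist, against 48.6% to 51.4% with WNT and 37.8% to 45.4% after 48 h of withdrawal. Thus Wnt7b was the leading ligand in 5 of the 6 agonist libraries, all but FZD5 agonist 1, and Wnt4 led in all 6 libraries of the WNT and 48 h withdrawal groups. A lead of Wnt7b was not particular to the agonists. It also led in CHIR 2 (62.6%) and in 24 h withdrawal libraries 1 and 3 (39.5% and 44.9%). Wnt4 led in CHIR 1 (45.1%) and 24 h withdrawal 2 (87.6%), and in CHIR 3 the 2 genes were nearly level (39.0% Wnt4 and 38.9% Wnt7b). These shares are ratios within a library and were not tested.

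**Figure D2:**
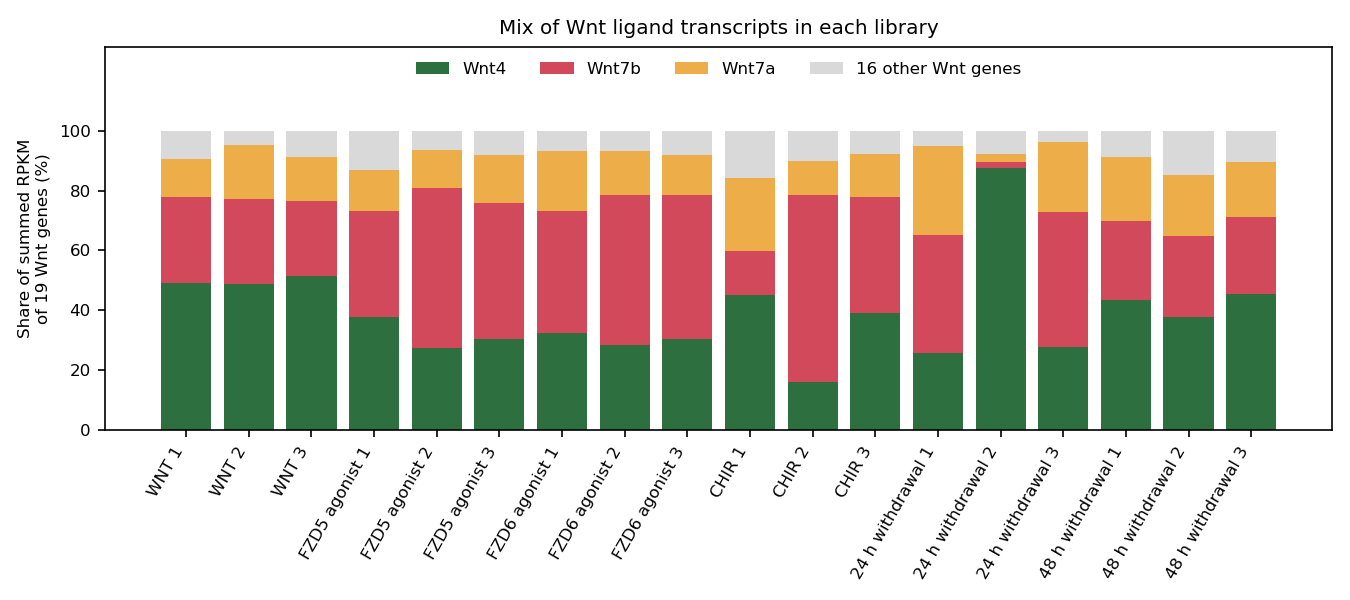
Share (percent) of Wnt4, Wnt7b, Wnt7a and the 16 other Wnt genes in the summed deposited RPKM of 19 Wnt genes, 1 bar per library. The Wnt7b part is 35.7% to 53.4% in the agonist libraries, against 25.0% to 28.8% in the WNT and 48 h withdrawal libraries; CHIR and 24 h withdrawal libraries differ most within their group.

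The comparison of withdrawal with CHIR asks how the cells' own Wnt genes respond when the agonist is taken away. Wnt3a, a strong activator of beta-catenin signalling, had no count in any CHIR library and none in any 24 h withdrawal library, and was present in all 48 h withdrawal libraries. Its level was 1.02, 2.94 and 1.14 CPM in 48 h withdrawal libraries 1, 2 and 3. Summed over the group, 182 counts after 48 h of withdrawal stood against 0 in CHIR. The summed level was 68.2-fold the floor for CHIR, 3 counts over the group (0.0241 CPM), and 56.2-fold the like floor for 24 h withdrawal. Such ratios allow for counting error in the group at 0 only, not for the spread among libraries. Wnt3a passed the edgeR test of 48 h withdrawal against CHIR (adjusted p = 0.0397 over 18 libraries, with no overlap of the groups), and was the 1 member of 9 tested that did, where 2.59% of all 16497 genes were called. That call was lost when any single library of the 2 groups was left out (adjusted p 0.0545 to 0.119) and over the 14 libraries (adjusted p = 0.0602), while against 24 h withdrawal the adjusted p was 0.180 over 18 libraries and 0.0304 over 14.

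The same gene was on in the cells given a ligand. Wnt3a stood at 1.54, 0.373 and 1.36 CPM with WNT and at 3.08, 0.378 and 0.452 CPM with the FZD5 agonist. With the FZD6 agonist it stood at 0, 0.713 and 0.715 CPM, the 0 in the low-correlation library 1. All libraries with Wnt3a counts thus came from 4 of the 6 groups. The levels of these groups overlapped, except that all FZD6 agonist libraries (at most 0.715 CPM) lay below all 48 h withdrawal libraries (at least 1.02 CPM). The group sums were 43.2-fold the same CHIR floor with WNT, 50.4-fold with the FZD5 agonist and 20.4-fold with the FZD6 agonist. Of the 148 counts with the FZD5 agonist, library 1 held 113. In edgeR over 18 libraries the differences from CHIR missed the threshold (adjusted p = 0.0606, 0.117 and 0.650). With the lowest-correlation library, 24 h withdrawal 2, out of the fit, edgeR called Wnt3a for 48 h withdrawal (adjusted p = 0.0139), WNT (0.0232) and the FZD5 agonist (0.0295) against CHIR.

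By mean log2 level, and less closely by summed level, alveolar type 1 markers moved with Wnt3a. The mean log2(CPM + 1) of 10 of them was 7.90 to 8.08 in the 48 h withdrawal libraries, against 7.17 and 7.31 in 24 h withdrawal libraries 3 and 1 and 5.74 to 6.41 in the CHIR libraries. FZD5 agonist 1, which had the highest Wnt3a level of all libraries, also had the highest marker mean, 8.38, and 62.8 CPM of the caveolin gene Cav1. The 7 libraries without a Wnt3a count were the 7 with the lowest marker means. The summed level of these markers was 9698 to 10600 CPM after 48 h of withdrawal, against 7111 to 10630 CPM after 24 h and 4571 to 8572 CPM in CHIR, with none of the 10 at 0 in all libraries. With WNT the sum was 9396 to 9710 CPM, with the FZD5 agonist 7752 to 10020 CPM and with the FZD6 agonist 8319 to 8772 CPM. By this sum, libraries with and without Wnt3a counts overlapped. Club and secretory markers summed to 512 to 650 CPM after 48 h of withdrawal and 482.9 to 523 CPM with WNT, against 46.2 to 873 CPM in CHIR. Their sum was 131.5 to 349.9 CPM with the FZD5 agonist, 145.7 to 1011 CPM with the FZD6 agonist and 120.5 to 592.1 CPM after 24 h of withdrawal. Ciliated markers (4 of 5 below 1 CPM in all libraries, Dnah5 at 0) summed to 8.37 to 16.2 CPM after 48 h of withdrawal, 6.56 to 7.61 CPM with WNT and 3.42 to 20.9 CPM with the FZD5 agonist, against 1.93 to 2.79 CPM in CHIR. They summed to 0.362 to 7.06 CPM with the FZD6 agonist and to 0.846 to 3.22 CPM after 24 h of withdrawal. Whether a change of cell state or makeup takes part in the level of Wnt3a was not tested.

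**Figure D3:**
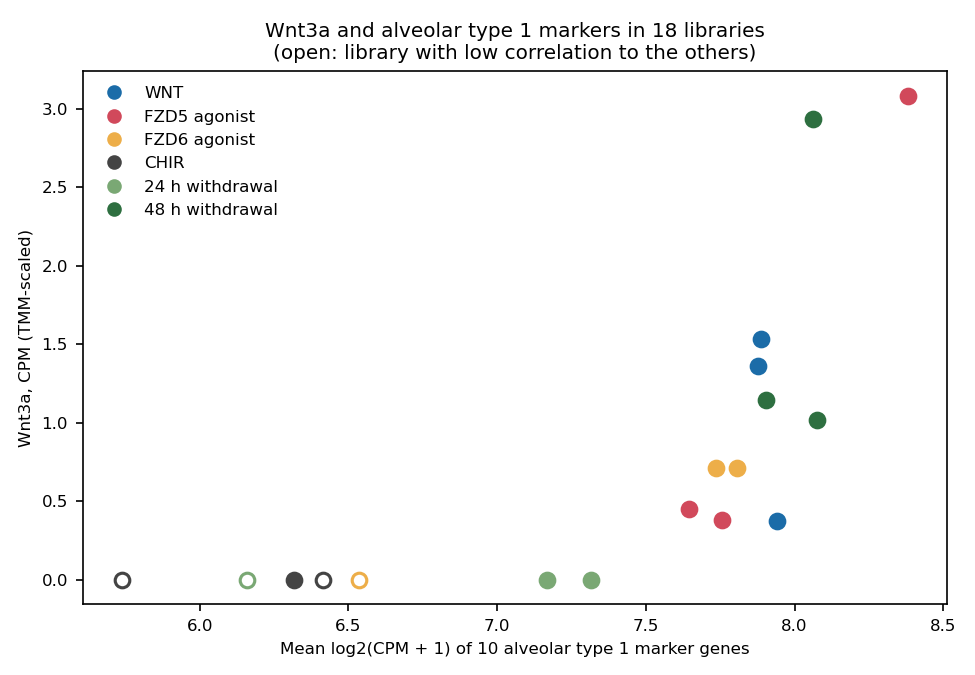
Wnt3a (CPM, TMM-scaled) against the mean log2(CPM + 1) of 10 alveolar type 1 markers in each of 18 libraries, coloured by group, with open points for the 4 low-correlation libraries. Libraries at or below a marker mean of 7.31 have no Wnt3a count, and FZD5 agonist 1 is highest on both axes at 8.38 and 3.08 CPM.

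The sequence before the Wnt3a start is shown because this gene was at 0 in all 6 libraries of the CHIR and 24 h withdrawal groups. The 250 bases before its RefSeq start (GRCm38.p6, chr11:59290752-59291001, minus strand, 5′ to 3′) are as follows.
Wnt3a promoter: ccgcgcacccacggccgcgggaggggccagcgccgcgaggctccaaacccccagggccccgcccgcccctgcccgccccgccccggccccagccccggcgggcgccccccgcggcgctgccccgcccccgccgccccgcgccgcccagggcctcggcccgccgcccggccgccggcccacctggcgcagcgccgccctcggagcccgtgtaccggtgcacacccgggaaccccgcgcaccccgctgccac
It is 87.6% G and C with 41 CG dinucleotides. The TCF/LEF core letters CTTTGAA or CTTTGAT, and CTTTGTA or CTTTGTT, searched on both strands, do not occur in it, nor in the promoters of Wls, Wnt4, Wnt7a and Wnt9a. Of the 7 RefSeq promoters found for 6 of the 10 genes, 1 held them, the first of the 2 listed for Wnt11 (CTTTGAT on the minus strand, at -51), and of all 32851 promoters 14.8% did. Wnt9a starts 16176 bases from Wnt3a on chromosome 11, on the opposite strand.

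Wls, Wnt4, Wnt7a and Wnt9a were also higher after 48 h without CHIR than in CHIR, in the 14-library fit. Wls stood at 599, 689 and 570 CPM after 48 h of withdrawal, against 275, 343 and 472 CPM in CHIR libraries 1, 2 and 3, with no overlap. Its fitted log2 difference was 0.77 ± 0.298 (SE) over 18 libraries with an edgeR adjusted p of 0.198, and 0.87 with an adjusted p of 1.39e-04 over 14. With 24 h withdrawal 2 alone out of the fit, and all 3 CHIR libraries in it, Wls was called (log2 0.77, adjusted p = 0.0101), so the carrier's difference does not rest on dropping CHIR libraries. In the 17-library fit 2 of 9 members, Wnt3a and Wls, were called, where 14.5% of genes were.

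Wnt4, a ligand known for its part in kidney and reproductive tract development, was steady after 48 h of withdrawal at 23.7, 23.2 and 23 CPM, and uneven in CHIR at 2.98, 4.94 and 33.8 CPM. The third CHIR value, in the library with Scgb1a1 at 50.8 CPM, lay above all 48 h withdrawal values, and the log2 difference was 0.74 ± 0.760 (SE, adjusted p = 0.701) over 18 libraries and 2.26 (adjusted p = 1.53e-06) over 14. Wnt4 was likewise at 12.7 and 12.4 CPM in 24 h withdrawal libraries 1 and 3 and at 81.1 CPM in library 2, the highest Wnt4 value of the series. That library alone set the direction of 48 h against 24 h withdrawal for Wnt4: the log2 difference was -0.60 over 18 libraries, 0.89 with that library alone left out and 0.90 over 14 (adjusted p = 0.710, 0.751 and 4.28e-04).

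Wnt7a, a ligand of limb and reproductive tract patterning, stood at 8.89, 9.52 and 7.03 CPM after 48 h of withdrawal, against 1.23, 2.60 and 9.28 CPM in CHIR, where CHIR 3 overlapped the withdrawal values. Its log2 difference was 0.95 over 18 libraries (adjusted p = 0.492) and 1.73 over 14 (adjusted p = 1.91e-04). Wnt9a, a ligand of joint formation, stood at 1.26, 1.34 and 1.37 CPM after 48 h, against 0.0274, 0.463 and 2.63 CPM in CHIR, and its log2 difference was 0.34 over 18 libraries (adjusted p = 0.911) and 1.53 over 14 (adjusted p = 0.0268). For Wnt4, Wnt7a and Wnt9a alike CHIR 3 was the high CHIR library, so CHIR as a group had a wider spread than 48 h withdrawal. Wnt7b, at 15.2, 17.4 and 13.8 CPM after 48 h and 1.01, 20.3 and 35.5 CPM in CHIR, was not called over 18 or 14 libraries (log2 -0.29 and -0.37).

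Over the 14 libraries 4 of 9 members were called for 48 h withdrawal against CHIR, where 27.5% of all 17433 genes were, and the median log2 difference was 1.53 over the 9 members and 0.00534 over all genes. With 9 members tested, this count is not read as a result about the members, and CHIR 2 is the 1 CHIR library of that fit. Wls was also called with all 3 CHIR libraries in the fit, as above, and Wnt4 with CHIR 3 alone left out of the 18 (log2 2.56, adjusted p = 0.0429). After 24 h, 2 of 9 were called against CHIR (Wnt7a, log2 1.88, and Wnt4, log2 1.36, against 0.67 and 1.34 over 18 libraries), where 4.5% of genes were. Between 48 h and 24 h, 3 of 9 were higher at 48 h (Wnt3a, Wls, log2 0.40, against 0.73 over 18 libraries, and Wnt4, log2 0.90), where 18% of genes were called. Over 18 libraries edgeR called 0 of 9 members in the comparisons of 24 h withdrawal with CHIR and of 48 h with 24 h withdrawal, where 0% and 0.0485% of genes were called, and 2809 and 2973 genes had an unadjusted p under 0.05. DESeq2 called Wnt3a alone of the members for 48 h withdrawal against CHIR and against 24 h withdrawal, where 8.48% and 3.38% of genes were called.

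**Figure D4:**
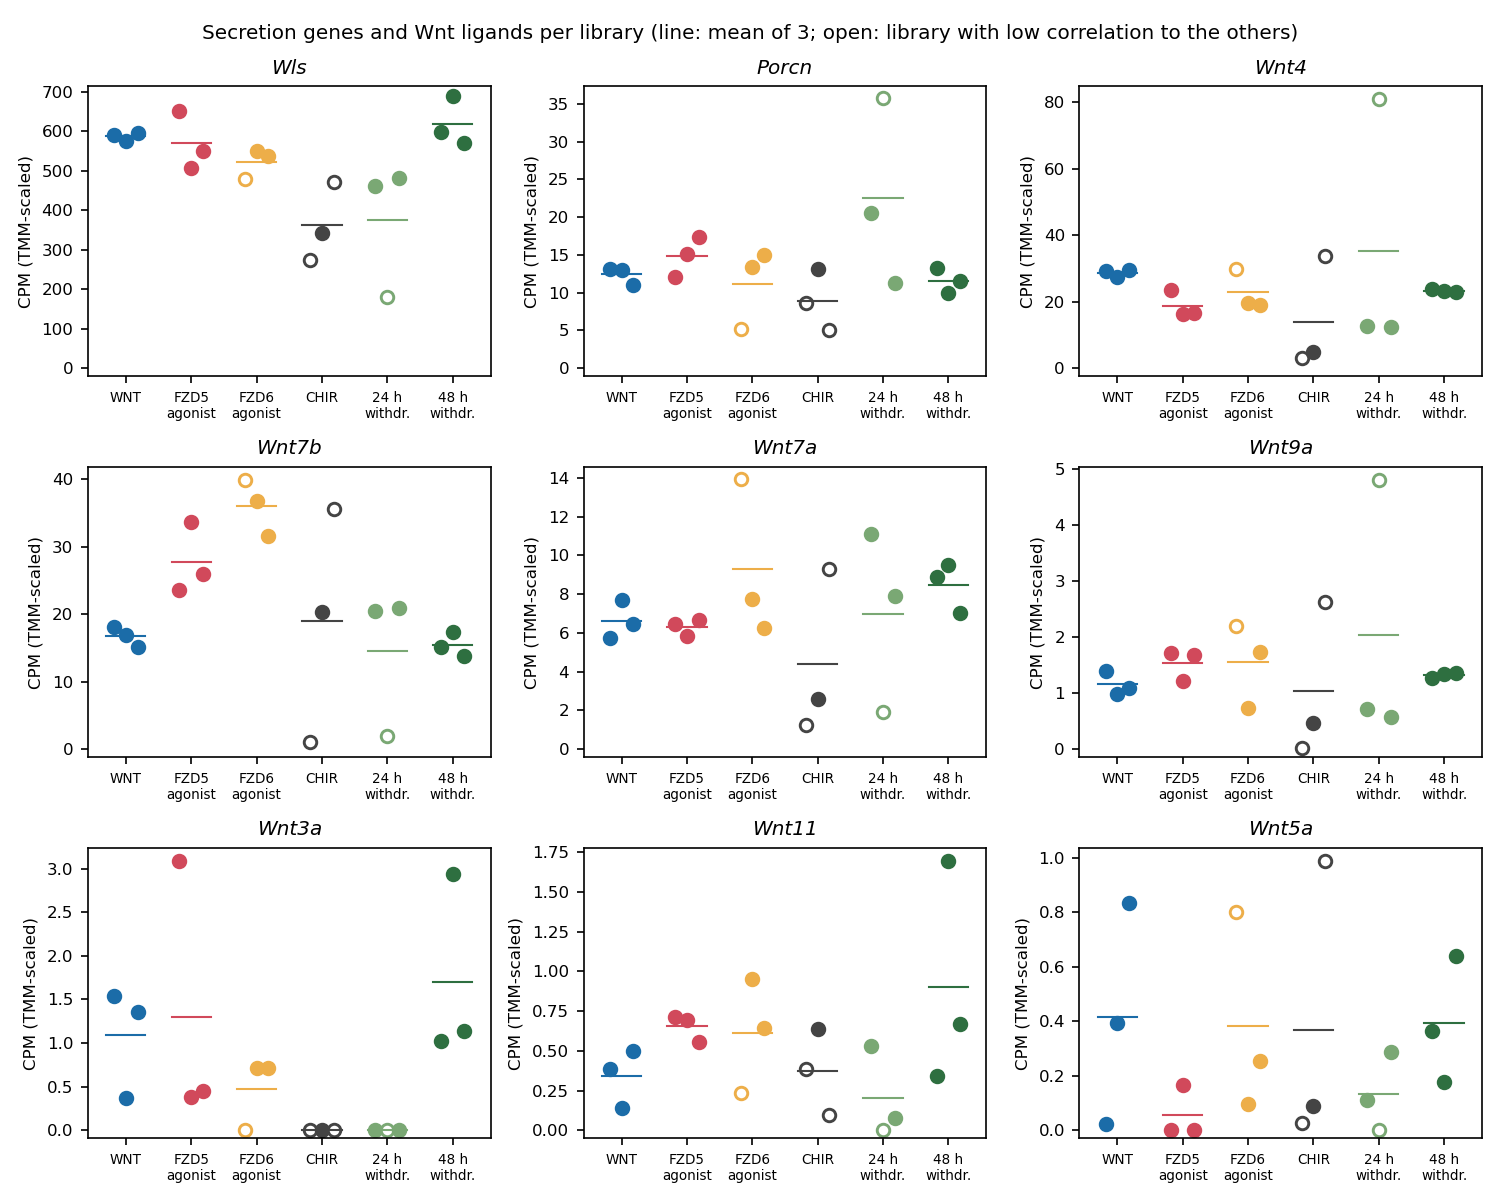
CPM (TMM-scaled) of the 9 tested genes in each library by group, with the mean of 3 as a line and open points for the 4 low-correlation libraries. Wnt7b is 23.6 to 39.9 CPM in the 6 agonist libraries, against 13.8 to 18.1 CPM with WNT and 48 h withdrawal, and the CHIR and 24 h withdrawal points of Wnt4, Wnt7a, Wnt7b and Wnt9a lie furthest apart.

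The ligand groups ask whether a Wnt protein or a receptor-specific agonist, given in place of CHIR, keeps the cells different from withdrawn cells. For the cells' own ligands Wnt7b separated the agonist groups from WNT and 48 h withdrawal. It stood at 23.6, 33.7 and 25.9 CPM with the FZD5 agonist and at 39.9, 36.8 and 31.5 CPM with the FZD6 agonist. With WNT it stood at 18.1, 16.9 and 15.2 CPM, within the range of 13.8 to 17.4 CPM of 48 h withdrawal but for 1 library. All 6 agonist libraries were above all 6 libraries of those 2 groups. The 24 h withdrawal libraries held 20.5, 1.97 and 21.0 CPM, all below the FZD5 agonist values. Of these, libraries 1 and 3 lay above all WNT and 48 h withdrawal values. Over 14 libraries Wnt7b was not called for the FZD5 agonist against 24 h withdrawal. In CHIR, at 1.01, 20.3 and 35.5 CPM, library 3 lay above all FZD5 agonist libraries.

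Wnt7b means were 27.8 ± 5.29 CPM with the FZD5 agonist, 36.1 ± 4.22 CPM with the FZD6 agonist, 16.7 ± 1.43 CPM with WNT and 15.4 ± 1.80 CPM after 48 h of withdrawal (SD, n = 3 each). Against 48 h withdrawal the log2 difference was 0.85 ± 0.814 (SE) for the FZD5 agonist and 1.22 ± 0.820 for the FZD6 agonist over 18 libraries, with adjusted p of 1 for both in edgeR. Over the 14 libraries the same differences were 0.86 ± 0.128 and 1.15 ± 0.139 with adjusted p of 3.21e-04 and 6.77e-05. The estimate was thus nearly the same and its SE smaller, but keeping libraries for their likeness can itself lower the SE. With only the 9 libraries of the WNT, FZD5 agonist and 48 h withdrawal groups, none of them of low correlation, the FZD5 agonist difference was 0.84 ± 0.136 (adjusted p = 0.00186). Wnt7b was the 1 of 9 members called against 48 h withdrawal for each agonist over 14 libraries, where 15.7% (FZD5 agonist) and 12.1% (FZD6 agonist) of genes were called. The Wnt7b gene overlaps the antisense gene AU022754, and since use of strand in the counting is not stated their reads cannot be told apart.

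Wnt4 ran the other way between the agonists and WNT. It stood at 23.6, 16.4 and 16.5 CPM with the FZD5 agonist and at 29.9, 19.7 and 19.0 CPM with the FZD6 agonist, against 29.2, 27.3 and 29.7 CPM with WNT. The FZD5 agonist and WNT libraries did not overlap, and the FZD6 agonist values overlapped WNT through library 1. Over the 14 libraries Wnt4 was lower with the FZD5 agonist (log2 -0.61 ± 0.121, adjusted p = 0.00273) and with the FZD6 agonist (log2 -0.58 ± 0.136, adjusted p = 0.0119) than with WNT (18 libraries: -0.61 ± 0.758 and -0.33 ± 0.756), while Wnt7b was higher with both (log2 0.73, adjusted p = 0.00111, and log2 1.02, adjusted p = 2.23e-04). In the 9-library fit the FZD5 agonist differences from WNT were -0.62 for Wnt4 and 0.72 for Wnt7b (adjusted p = 0.00657 and 0.00418). These were 2 of 9 members in each comparison with WNT, where over 14 libraries 16.7% (FZD5 agonist) and 11.8% (FZD6 agonist) of genes were called, and over 9 libraries 16.4%.

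**Figure D5:**
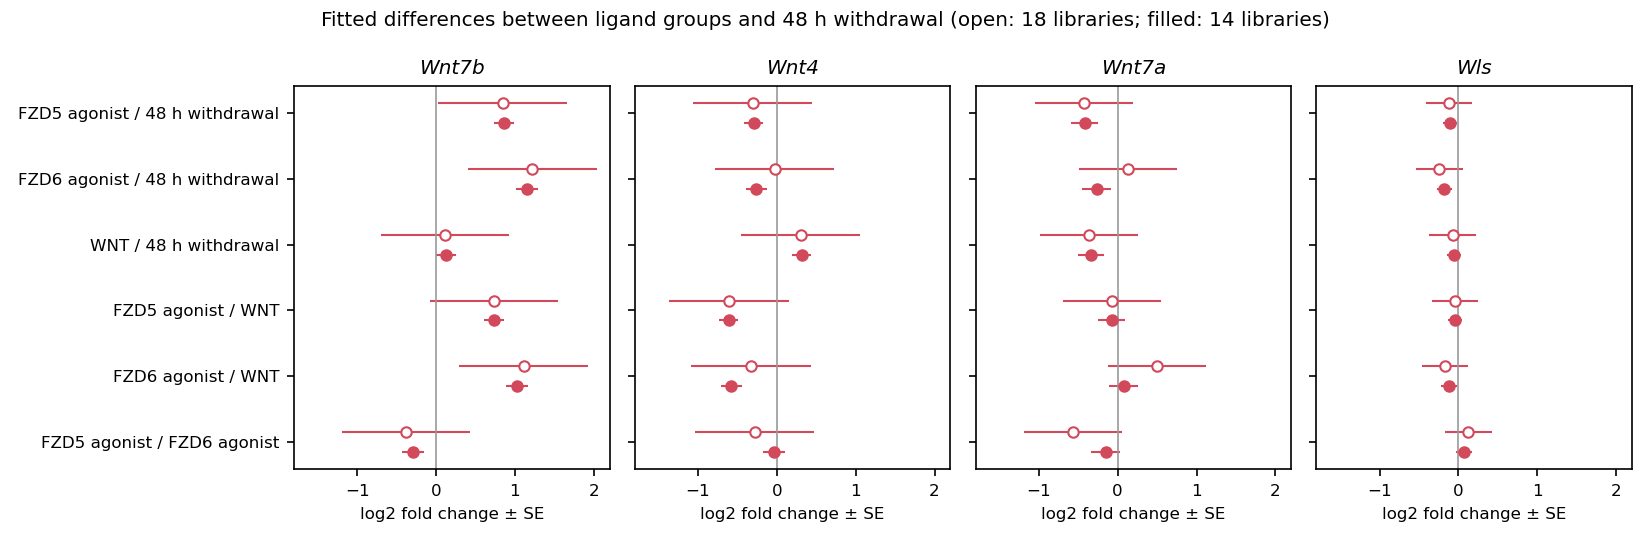
Fitted log2 fold change ± SE of Wnt7b, Wnt4, Wnt7a and Wls for the ligand groups against 48 h withdrawal and against each other, from 18 libraries (open) and 14 libraries (filled). The Wnt7b estimates against 48 h withdrawal are 0.85 and 0.86 for the FZD5 agonist and 1.22 and 1.15 for the FZD6 agonist, with a shorter error bar over 14 libraries; Wls estimates lie near 0.

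Between the agonists no member passed the test. FZD5 against FZD6 agonist gave a Wnt7b log2 difference of -0.38 ± 0.808 over 18 libraries and -0.29 ± 0.139 over 14, with adjusted p of 1 in both, and 0 of 9 members called where 0% and 0.00574% of genes were (164 and 533 genes had an unadjusted p under 0.05). WNT against 48 h withdrawal gave no called member either, with 0% of genes called over 18, 14 and 9 libraries and 35, 1344 and 1140 genes at an unadjusted p under 0.05. In that comparison the log2 difference of Wnt4 was 0.30 ± 0.756 over 18 libraries and 0.32 ± 0.120 over 14, and that of Wls was -0.08 and -0.06. Missing the threshold does not show that these pairs act alike. Over 18 libraries 0 of 9 members were called in the comparisons of either agonist with 48 h withdrawal or WNT, where 0% to 0.0121% of genes were called and 393 to 667 had an unadjusted p under 0.05, and DESeq2 called 0 members there too. DESeq2 called 0.158% and 0.353% of genes for the FZD5 and FZD6 agonist against 48 h withdrawal and 0.179% and 0.325% against WNT. With 24 h withdrawal 2 alone left out edgeR also called 0 of 9 members in these comparisons, where 0.0413%, 0.213%, 0.0945% and 0.201% of genes were called, and Wnt7b had adjusted p of 0.839 and 0.546 against 48 h withdrawal.

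Against CHIR, DESeq2, which uses all 18 libraries, called Wnt3a in all 3 ligand groups (5.81%, 4.41% and 0.469% of genes for WNT, FZD5 agonist and FZD6 agonist). Over the 14 libraries, where CHIR 2 is the 1 CHIR library, each ligand group had Wls, Wnt4 and Wnt7a at a higher level. CHIR 3, left out of that fit, held Wnt4 at 33.8 CPM, above all libraries of the ligand groups. Its Wnt7a, at 9.28 CPM, lay above all WNT and FZD5 agonist libraries. The called members numbered 4 of 9 for WNT (with Wnt9a), 4 for the FZD5 agonist (with Wnt9a) and 4 for the FZD6 agonist (with Wnt7b), where 26.6%, 13.6% and 8.48% of genes were called. Wls stood at 591, 576 and 596 CPM with WNT, at 652, 506 and 551 CPM with the FZD5 agonist and at 478, 551 and 538 CPM with the FZD6 agonist, each above the CHIR maximum of 472 CPM. Its log2 difference from CHIR over 14 libraries was 0.81, 0.77 and 0.70 in that order of groups (adjusted p = 2.86e-04, 0.00128 and 0.00487). In the 17-library fit Wls and Wnt3a were the 2 members called for WNT and for the FZD5 agonist, where 12% and 8.84% of genes were called, and 0 of 9 were called for the FZD6 agonist, where 0.0295% were. The 18-library edgeR fit called 0 of 9 members against CHIR in the 3 ligand groups, where 1.92%, 0.00606% and 0.00606% of genes were called and 2397, 2223 and 1067 had an unadjusted p under 0.05. With CHIR 3 alone left out it called Wnt4 for WNT (log2 2.87, adjusted p = 0.0327). All these comparisons share the CHIR libraries.

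Against 24 h withdrawal, over the 14 libraries, WNT had higher Wls (log2 0.34) and Wnt4 (log2 1.22), where 13.6% of genes were called. The FZD5 agonist had higher Wnt4 (log2 0.61, adjusted p = 0.0248), where 4.23% were called, and the FZD6 agonist had higher Wnt7b (log2 0.74, adjusted p = 0.0430), where 0.677% were. Over 18 libraries the Wnt4 differences from 24 h withdrawal turned round, to -0.30 for WNT and -0.91 for the FZD5 agonist, through the value of 81.1 CPM in 24 h withdrawal 2. The 18-library edgeR fit called 0 of 9 members here, where 0.0303%, 0.00606% and 0% of genes were called for WNT, FZD5 agonist and FZD6 agonist and 2682, 2897 and 2517 had an unadjusted p under 0.05. In each of these, Wnt3a was the 1 member that DESeq2 called, where it called 2.16%, 0.867% and 1.35% of genes.

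Porcn, the enzyme that LGK974 inhibits, passed no test in the 15 comparisons, neither in the fit of 18 libraries nor in that of 14. It stood at 13.2, 13.0 and 11.1 CPM with WNT and at 12.0, 15.1 and 17.4 CPM with the FZD5 agonist, against 13.2, 9.91 and 11.5 CPM after 48 h of withdrawal. The values of the FZD6 agonist group were 5.20, 13.4 and 15 CPM. Its range was widest in the low-correlation libraries, from 5.0 CPM in CHIR 3 to 35.8 CPM in 24 h withdrawal 2, and within the 14 libraries it ran from 9.91 to 20.5 CPM. RNA levels say nothing of the activity of the inhibited enzyme.

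Wnt5a and Wnt11, which are best known for signalling that does not need beta-catenin, were close to the limit of detection. Wnt11 reached 1.69 CPM in 48 h withdrawal 2 and was 0.9 ± 0.704 CPM after 48 h of withdrawal, against 0.372 ± 0.273 CPM in CHIR (SD, n = 3 each), with overlapping libraries. With the FZD5 agonist it was more even, at 0.653 ± 0.0829 CPM, and with WNT it was 0.341 ± 0.185 CPM. Wnt5a had 8 counts in all with the FZD5 agonist, against 44 after 48 h of withdrawal and 56 with WNT, and no library exceeded 0.987 CPM. Neither gene was called in any comparison over 18 or 14 libraries. Wnt5a overlaps the antisense gene Gm2670, Wnt11 the pseudogene Gm8398 and Wls the small genes Gm43307 and Gm23941, whose reads could have been counted with theirs.

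The machinery that moves Wls was expressed in every group. All 9 genes of the carrier traffic list (retromer subunits, sorting nexins and the p24 cargo receptors Tmed2, Tmed5 and Tmed10) were tested, and none was called over 18 libraries. Over 14 libraries the retromer core subunit Vps35 was lower after 48 h of withdrawal than in CHIR (log2 -0.27 ± 0.0769, adjusted p = 0.0143), along with Vps26a (-0.28) and Tmed5 (-0.36), 3 of 9 genes where 27.5% of all genes were called; over 18 libraries these were -0.39, -0.62 and -0.79. Between 48 h and 24 h of withdrawal 4 of 9 were lower at 48 h: Vps35, Tmed5, Tmed10 and the sorting nexin Snx3 (log2 -0.25, adjusted p = 0.0178), where 18% of all genes were called. Over 18 libraries the difference was -0.24 for Snx3, and that of Vps35 turned round (-0.20 over 14, 0.33 over 18). Vps35 stood at 384.5 ± 9.01 CPM with the FZD5 agonist, against 320.2 ± 14.1 CPM with WNT and 339 ± 7.31 CPM after 48 h of withdrawal (SD, n = 3 each). Its log2 difference for the FZD5 agonist was 0.26 from WNT (adjusted p = 0.00448) and 0.19 from 48 h withdrawal (adjusted p = 0.0273), against 0.26 and 0.18 over 18 libraries with adjusted p of 1.

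Among 21 genes that act on Wnt ligands outside the cell, 8 were tested over 14 libraries, and none of the 6 tested over 18 was called. Gpc3, a cell-surface glypican that binds Wnt ligands, was the gene of this list called most often over 14 libraries. It stood at 168.7 ± 18.2 CPM with the FZD5 agonist and 149.5 ± 26.6 CPM with the FZD6 agonist, against 119.4 ± 6.28 CPM with WNT and 104.2 ± 5.53 CPM after 48 h of withdrawal (SD, n = 3 each). The log2 difference from 48 h withdrawal was 0.71 for the FZD5 agonist (adjusted p = 3.32e-05) and 0.67 for the FZD6 agonist (adjusted p = 1.46e-04), against 0.69 and 0.52 over 18 libraries with adjusted p of 1. Wif1, a secreted inhibitor that binds Wnt ligands, was higher after 48 h of withdrawal than in CHIR (log2 2.95 ± 1.0, adjusted p = 0.0396, and 4.13 with adjusted p = 0.0610 over 18 libraries), at 0.870 ± 0.603 CPM against 0.0446 ± 0.0580 CPM. Dkk3, of the Dickkopf family of secreted Wnt modulators, had too few counts to be tested over 18 libraries and was tested over 14 only. It had 28 counts after 48 h of withdrawal, at most 0.307 CPM in a library, against 0 after 24 h. At this level the difference is given as a description. Gpc3 overlaps 4 other annotated genes and Vps35 1, with the same limit on strand as above. Of the 11 other Wnt ligand genes only 1 was tested over 18 libraries and 2 over 14, and none of those tested was called in any comparison.

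The readouts Axin2 and Lgr5, both targets of beta-catenin, are given for every group beside the ligand genes. Axin2 was 3.59 ± 1.17 CPM with the FZD5 agonist, 2.03 ± 0.908 CPM with the FZD6 agonist, and 0.332 ± 0.0811 CPM with WNT (SD, n = 3 each). CHIR libraries 1, 2 and 3 held 2.38, 9.43 and 1.55 CPM of it. The 24 h withdrawal libraries held 2.2, 0 and 1.83 CPM, and the 48 h ones 0.413, 0.771 and 0.167 CPM. Over 14 libraries its log2 difference from 48 h withdrawal was 3.01 for the FZD5 agonist (adjusted p = 8.84e-05) and 2.49 for the FZD6 agonist (adjusted p = 7.81e-04); over 18 libraries it was 2.99 and 2.17 with adjusted p of 1. Axin2 and Wnt7b were thus both called higher for each agonist against 48 h withdrawal over 14 libraries. Lgr5 was 6.28 ± 4.67 CPM in CHIR and at most 1.59 CPM as a group mean elsewhere.

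The tested genes whose log2 CPM was most like that of Wnt3a over the 18 libraries, of 10527 compared, were Galnt18 (Pearson r 0.956), Sec14l3 (0.935) and Nrep (0.931), and over the 14 libraries their r was 0.963, 0.955 and 0.910. Those most like Porcn were Rgs11 (0.920), Rsbn1 (0.912) and Grik5 (0.907), but over the 14 libraries their r was 0.525, 0.611 and 0.257, so this likeness rests on the low-correlation libraries. The 18 points share treatment groups and depth, and the values are descriptions.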

How the data were processed

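RNA was sequenced in 18 libraries, 3 in each of 6 groups set by the treatment in the labels. Per the labels' protocols, total RNA went into a stranded total RNA library kit. GRCm38 as the build and GSNAP, an aligner, appear in the submitters' processing notes. Not given in the sources used here are tool versions, the annotation and how genes were counted, strand included. The deposited gene counts are whole numbers and not normalised. The authors made the deposited RPKM from the counts, a gene width and a library total above the sum of gene counts, as the values show; 11.7% to 15.6% of that total lay outside gene counts in 17 libraries and 31.3% in 24 h withdrawal 2. Symbols and 1-based coordinates come from GENCODE M21, which named 52403 of 52636 listed genes (99.6%).

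Counts were tested with edgeR 4.0.16 in R 4.3.3 (TMM factors, filterByExpr by group, glmQLFit with robust estimation, glmQLFTest) in 1 fit of 18 libraries for 15 comparisons, with Benjamini-Hochberg adjusted p under 0.05 over all 16497 genes tested; 36139 were removed. The SE of a log2 fold change is its size over the root of the F statistic. CPM use TMM-scaled totals, and RPKM were used for levels between genes. Intervals and floors of 3 counts cover counting error only. Alternatives were RLE factors, DESeq2 1.42.0, no filter, the replicate number as a block, leaving out each library of a comparison, and 14 libraries with a median correlation of at least 0.96. Fits of 9 and of 17 libraries were added after seeing the data. The test was tried on simulated data.

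The genes and lists were chosen with earlier results of these data known. Named were all 10 genes; up to 4 called genes with the smallest p per list; the 3 genes most like Wnt3a, the 1 member called over 18 libraries, and most like Porcn, which had the smallest p among members with no call; and Axin2 and Lgr5. Genes overlapping a member and markers were named for the check they give. Promoters are from RefSeq (GRCm38.p6). Replicate numbers did not pair libraries.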

Additional observations from a re-analysis of the deposited data

Results flagged for a closer look

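Members were flagged by a difference between 2 treatment times or 2 ligands, tested directly over the 14 libraries of higher correlation. Sizeable shares of all genes were called in the same comparisons, as given above, so the number of flagged differences is not read as a result about the members. Between 48 h and 24 h of withdrawal the log2 difference was 9.11 for Wnt3a, a fitted value against a group at 0 that is no bound, 0.40 for Wls and 0.90 for Wnt4. Between the FZD5 agonist and WNT it was 0.73 for Wnt7b and -0.61 for Wnt4, and between the FZD6 agonist and WNT 1.02 for Wnt7b and -0.58 for Wnt4. None of these differences passed edgeR's adjusted threshold over 18 libraries.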

How the results depend on the processing

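Counts of called members were 1 for 48 h withdrawal against CHIR and 0 elsewhere over 18 libraries. For the fits of 18 and 14 libraries the share of all genes called is given with each comparison above. No count is read as a result about the members. RLE factors and no filter kept all 15 counts, although without a filter 204 and 173 genes in all were called for 48 h withdrawal and WNT against CHIR, against 427 and 317 with it. Over 14 libraries the counts were 4 for 48 h withdrawal, WNT, FZD5 agonist and FZD6 agonist against CHIR, 2 for 24 h withdrawal against CHIR, 3 for 48 h against 24 h withdrawal, 2, 1 and 1 for WNT, FZD5 agonist and FZD6 agonist against 24 h withdrawal, 1 for each agonist against 48 h withdrawal and 2 for each against WNT. DESeq2, which gives Wnt4 no adjusted p, called 1 member (Wnt3a) in 7 comparisons where edgeR called 0. The 9-library fit called 1 (FZD5 agonist against 48 h withdrawal) and 2 (against WNT), and the 17-library fit 2 for 48 h withdrawal, WNT and FZD5 agonist against CHIR and 0 in its other comparisons without the 24 h group. With the replicate number as a block the count for 48 h withdrawal against CHIR was 0 (257 genes in all, and 198 for WNT against CHIR); same-numbered libraries deviated together no more than others (median r -0.0226 and 0.0150), and 5 of 18 were closest to their own number. Leaving out single libraries gave counts of 0 to 1 for 48 h withdrawal and for WNT against CHIR. Directions that turned were those of Wnt4 and Wnt9a. Over 14 libraries Wnt4 was 0.90, 1.22 and 0.61 (log2) for 48 h withdrawal, WNT and FZD5 agonist against 24 h withdrawal. Leaving out 1 library, the lowest and highest log2 values of Wnt4 were -0.15 and 3.15 for 24 h withdrawal against CHIR, -0.99 and 0.89 for 48 h against 24 h, -0.69 and 1.20 for WNT against 24 h, -1.31 and 0.59 for the FZD5 agonist against 24 h, and -0.0412 and 2.25 for it against CHIR. Those of Wnt9a against CHIR were -0.23 and 2.40 (48 h withdrawal), -0.42 and 2.2 (WNT) and -0.0102 and 2.60 (FZD5 agonist). The library that turned Wnt4 against 24 h was 24 h withdrawal 2, and the cause was not tested.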
